A study of Mus musculus with 59 samples.

Results

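The genes described here are the solute carriers, chosen as every gene of the deposited table whose symbol begins with Slc and a number. They numbered 70 of 4484 genes, or 1.56% of the table, and came from 32 of the 49 solute carrier families that GENCODE release M21 annotates among 371 protein-coding genes. The choice rested on symbols and used no measured value. Of these genes 68 had enough reads to be tested, and 1 of them, Slc9a3r2, carries the name but encodes NHERF2, a scaffold protein that holds transporters in place and is not itself a carrier.

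Solute carriers are membrane proteins that move small molecules across membranes along or against their gradients, many of them driven by the sodium, proton or chloride gradient. In cortex they clear glutamate and GABA from the extracellular space, fill synaptic vesicles, bring glucose and lactate to neurons and glia, set the chloride and calcium gradients that neurons depend on, and supply mitochondria and the Golgi with their substrates. Glutamate uptake from the synapse falls mainly to astrocytes, vesicular loading to neurons, and glucose entry over the blood-brain barrier to the endothelium.

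The study sequenced total RNA of the medial prefrontal cortex, homogenised whole, from adult C57BL/6J mice, an inbred wild-type strain. Its 59 libraries cover ZT2, ZT6, ZT10, ZT14, ZT18 and ZT22 in males and in females, which makes 12 groups. ZT10 females had 4 libraries and each other group 5. Zeitgeber time counts hours from lights on, and ZT14, ZT18 and ZT22 are called the dark phase and ZT2, ZT6 and ZT10 the light phase here by convention, since the labels give no light schedule. No group carried a treatment or an allele other than wild type, and the labels do not say that libraries with the same animal number are 1 animal, so p-values measure the spread between libraries.

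The deposited values were log2 of a scaled read count plus 1, and all levels below are on this scale unless given per kilobase. Whole reads recovered from them came to between 6317420 and 13325019 per library, but 6 abundant noncoding genes held 61.4% to 91.2% of these. The remaining reads numbered 1009789 to 4253935, and the solute carriers took 2.10% to 2.49% of them, or 21892 to 91636 reads. Libraries fell into 5 runs of serial numbers, called replicates 1 to 5 in every group, and the 11 libraries of replicate 5 stood apart on the first principal component of deviations from group means (20.3 ± 4.96 SD in replicate 5, against means of -7.32 to 1.84 in replicates 1 to 4). The labels do not call these runs a batch. Results on which they bear are given with and without replicate 5. Because whole tissue was homogenised, fewer cells of a type and less RNA per cell cannot be told apart for any gene below.

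Promoters of 3 carriers are printed because the results on time of day turn on these genes: Slc2a1, which varied with time of day in both tests over time, Slc25a28, which varied in 1 of them, and Slc24a4, which had the smallest p of the 68 carriers between dark and light phase. Each covers 300 bases at the annotated start, most of them upstream of it, 5′ to 3′, from RefSeq on GRCm38.p6. The Slc2a1 window is chr4:119108495-119108794 on the plus strand, the Slc25a28 window chr19:43674832-43675131 on the minus strand, and the Slc24a4 window chr12:102128477-102128776 on the plus strand. Capitals mark matches, on either strand, to the GC box GGGCGG, the hypoxia response element core ACGTG, the E-box CACGTG and the TATA box TATAAA. An E-box always contains the ACGTG core.
Slc2a1: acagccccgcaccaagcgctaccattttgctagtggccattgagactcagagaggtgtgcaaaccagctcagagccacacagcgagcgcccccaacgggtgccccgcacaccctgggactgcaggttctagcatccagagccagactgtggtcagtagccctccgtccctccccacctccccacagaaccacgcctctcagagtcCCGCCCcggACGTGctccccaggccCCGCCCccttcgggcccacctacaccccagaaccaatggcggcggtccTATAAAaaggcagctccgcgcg
Slc25a28: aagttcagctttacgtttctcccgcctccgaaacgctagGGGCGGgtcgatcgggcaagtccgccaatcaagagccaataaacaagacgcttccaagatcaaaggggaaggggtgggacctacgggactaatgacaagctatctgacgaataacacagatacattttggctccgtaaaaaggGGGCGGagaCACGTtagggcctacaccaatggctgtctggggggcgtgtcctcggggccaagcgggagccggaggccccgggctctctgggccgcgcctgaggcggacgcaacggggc
Slc24a4: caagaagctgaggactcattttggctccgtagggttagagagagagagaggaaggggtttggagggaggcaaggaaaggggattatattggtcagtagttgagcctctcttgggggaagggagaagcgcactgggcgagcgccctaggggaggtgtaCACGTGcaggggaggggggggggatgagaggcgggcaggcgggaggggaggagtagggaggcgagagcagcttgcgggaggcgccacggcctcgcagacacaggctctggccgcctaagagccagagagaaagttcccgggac

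The Slc2a1 window held 2 GC boxes, 1 ACGTG core and a TATA box and no E-box, the Slc25a28 window 2 GC boxes and 1 ACGTG core, and the Slc24a4 window 1 E-box and no GC box. Of the carriers, 59 matched a promoter entry, with 72 windows between them. Windows were searched on both strands. An E-box, the element bound by the CLOCK and BMAL1 clock proteins, lay in 9 of these 72 windows (12.5%). It lay in 7.15% of all 32851 windows, which are not limited to genes of the table. Whether any of the shares given here sets carriers apart from the other genes of the table was not tested. Besides Slc24a4 the carriers with an E-box were Slc12a5, Slc1a6, Slc25a1, Slc25a15, Slc25a33, Slc27a1, Slc33a1 and Slc35e3. The ACGTG core lay in 27.8% of carrier windows, against 19.6% of all windows, and the GC box in 70.8%, against 35.7%. Carrier windows were also richer in G and C, at a median of 63.5%, against 52.7% over all windows. The TATA box was present in 6.94% of carrier windows, against 13.6% of all, and the ROR element TAGGTCA in 1.39%, against 2.61%. The cyclic AMP response element TGACGTCA lay in the window of Slc25a25 alone among the carriers (1.39%, against 1.79% of all windows), and no carrier window held the D-box TTACGTAA or the glucocorticoid response element, which lay in 0.119% and 0.00913% of all windows.

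Levels were compared between genes per kilobase of exon. Carriers not analysed here, among them Slc1a2, Slc2a3, Slc16a1 and Slc25a4, have no place in this ranking. Of the carriers analysed, the highest was Slc17a7, the vesicular glutamate transporter VGLUT1 of cortical glutamatergic neurons. Its median was 5563 scaled reads per kilobase over the 59 libraries (from 3905 to 7461). The zinc importer Slc39a10 followed at 1675, the mitochondrial phosphate carrier Slc25a3 at 1108, the astrocytic glutamate transporter Slc1a3 (GLAST) at 1096 and Slc22a17, known as a receptor for lipocalin-2, at 1035. The neuronal chloride exporter Slc12a5 (KCC2) stood at 992 and the sodium-calcium exchangers Slc8a1 and Slc8a2 at 905 and 849. The endosomal heme transporter Slc48a1 at 530 and the mitochondrial pyrimidine nucleotide carrier Slc25a33 at 477 completed the 10 highest. The range of Slc1a3 (445 to 1396) spanned the medians of Slc25a3, Slc22a17 and Slc12a5. That of Slc39a10 (1048.4 to 2394.5) reached below the medians of Slc25a3 and Slc1a3. The order of these genes within single libraries was not compared.

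**Figure D1:**
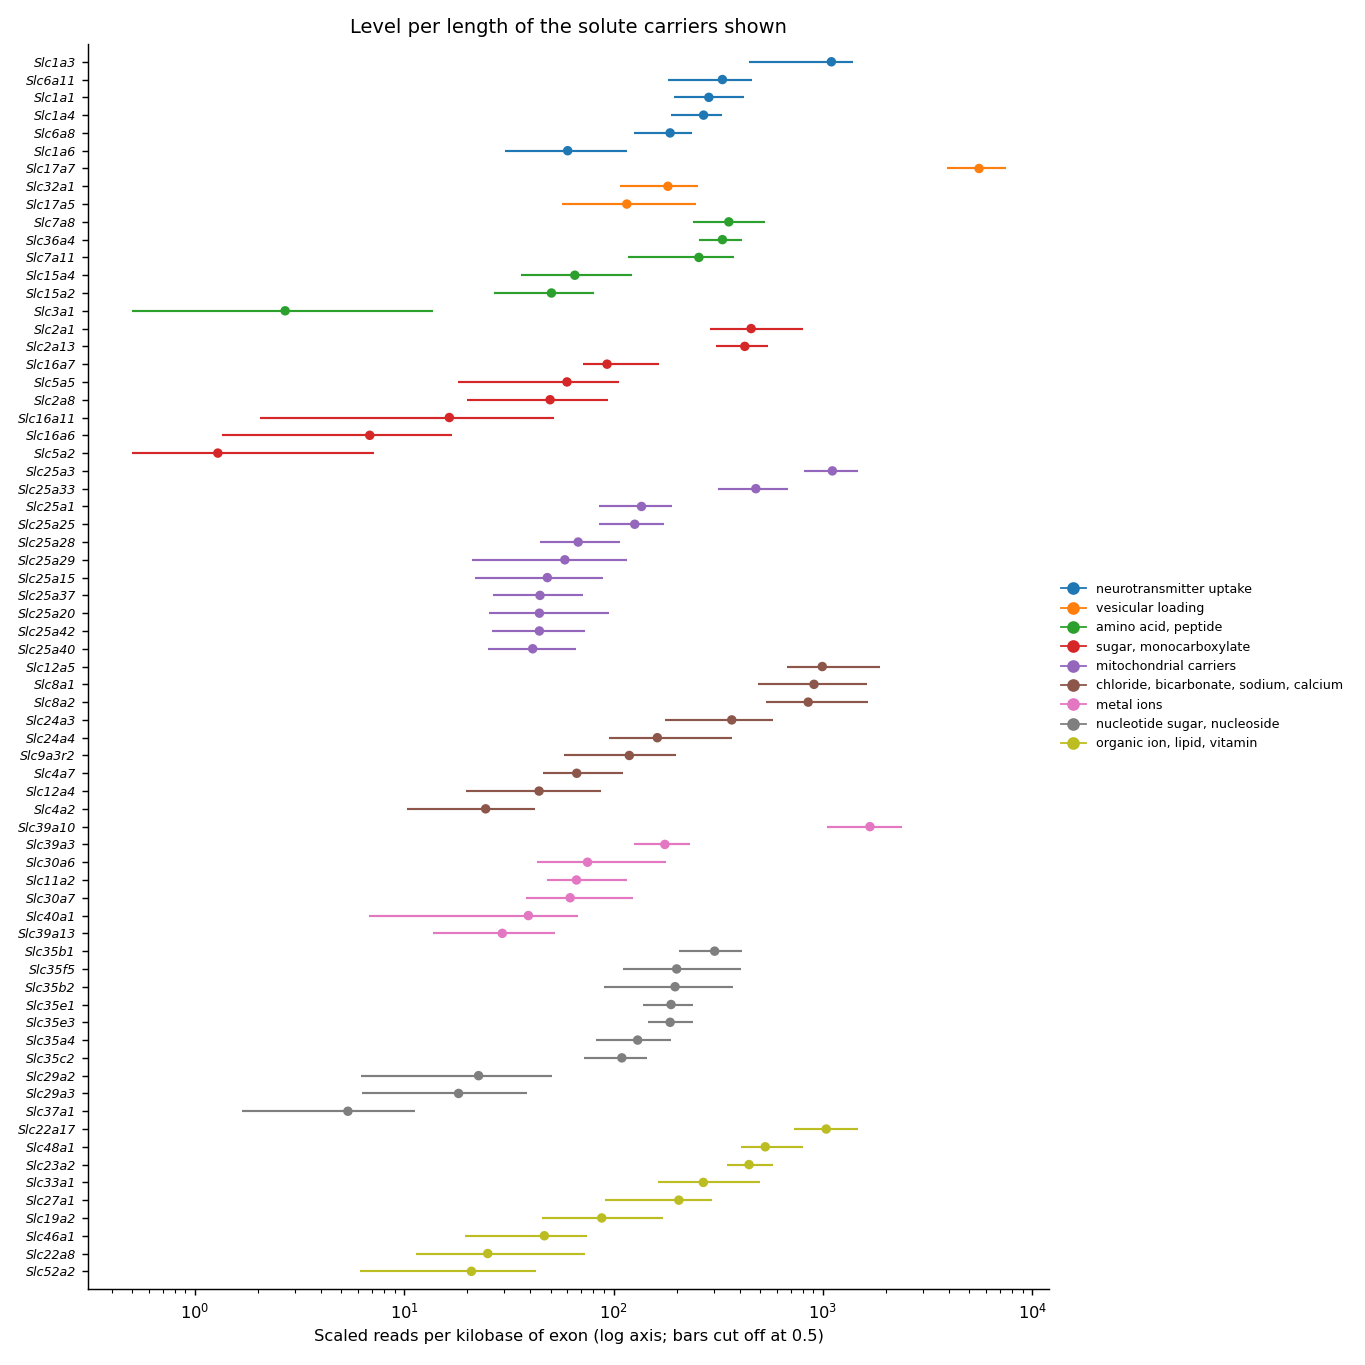
Level of the carriers shown, in scaled reads per kilobase of exon, on a log axis, grouped by class. Points are medians over 59 libraries and bars run from the lowest to the highest library, cut off at 0.5 where a library had no reads. Slc17a7 lies above every other carrier, and Slc3a1 and Slc5a2 lie lowest.

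At the other end were Slc5a2, the renal glucose cotransporter SGLT2, with a median of 1 recovered read and none in 24 libraries, and Slc3a1, the heavy subunit of a renal and intestinal cystine transporter, with a median of 2 reads and none in 16 libraries. Neither was tested. Among the classes, the 3 vesicular carriers ranged from 115.5 to 5563 scaled reads per kilobase, the 7 neurotransmitter uptake carriers from 60.3 to 1096, the 9 carriers of chloride, bicarbonate, sodium and calcium from 24.4 to 992, and the 11 mitochondrial carriers from 41.02 to 1108. The level of GABA-related carriers was lower than that of Slc17a7. The vesicular GABA transporter Slc32a1 had a median of 181 and the astrocytic GABA transporter Slc6a11 (GAT3) one of 331. Exons of 21 carriers overlap a gene on the other strand, and in 6 of them, Slc1a1, Slc32a1, Slc33a1, Slc16a6, Slc3a1 and Slc5a2, at least 20% of exonic bases do. The strand setting of the counting is not given in the sources used here, so levels of these 6 are uncertain.

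The first question of the design was which genes follow a 24 h rhythm. Among the 68 carriers tested, 1 was called, the glucose transporter Slc2a1, or 1.47%, against 81 of all 4273 genes tested (1.90%). The call was an adjusted p under 0.05 for a cosine and a sine of 24 h, with sex as a covariate, in limma with Benjamini-Hochberg adjustment over all genes tested. Without adjustment 9 carriers passed (13.2%), against 11.4% of all genes. The median fitted amplitude, from mean to peak, was 0.08 for the carriers and 0.08 for all genes. Fitted peaks were spread over the day, with 34 of the 68 between ZT12 and ZT24, against 49.4% of all genes. The carriers as a set were therefore called about as often as other genes of the table, and the account below rests on single carriers.

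**Figure D2:**
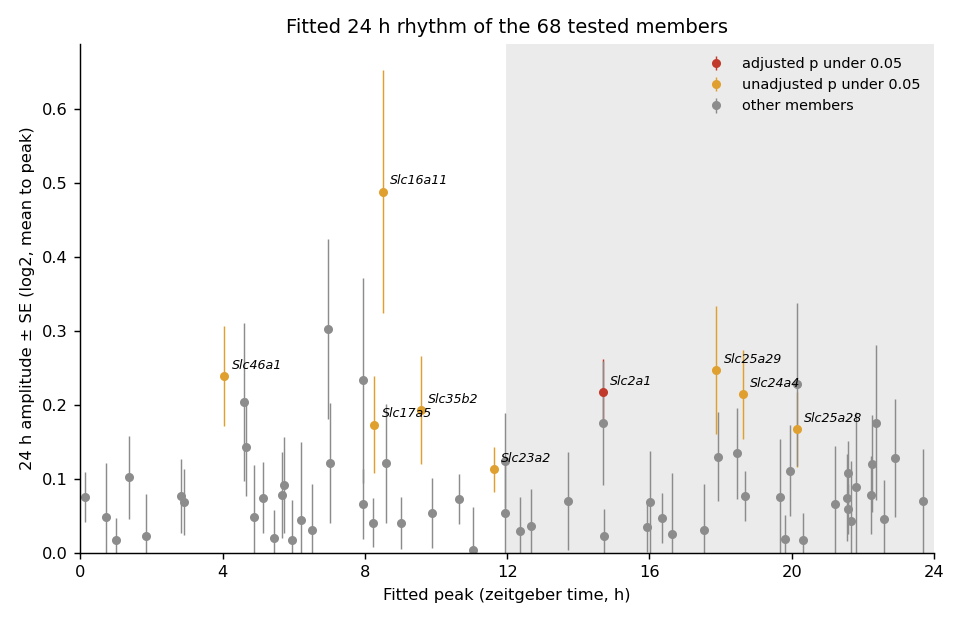
Fitted 24 h amplitude (log2, mean to peak, ± SE) against fitted peak in zeitgeber hours for the 68 tested carriers, with the dark phase shaded. Slc2a1 (red) is the carrier with an adjusted p under 0.05. The 8 orange carriers passed without adjustment, and Slc16a11 has the largest amplitude with the largest error.

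Slc2a1 encodes GLUT1, which carries glucose across the blood-brain barrier and into glia, and lies on GRCm38 chr4:119108711-119137983. Its level, as lowest, median and highest of the libraries, was 10.09, 10.44 and 10.64 at ZT2, 9.98, 10.46 and 10.85 at ZT6, and 10.60, 10.74 and 10.93 at ZT10. It was 10.29, 10.87 and 11.46 at ZT14, 10.05, 10.76 and 10.98 at ZT18, and 10.30, 10.62 and 11.03 at ZT22. Medians were lowest at ZT2 and highest at ZT14, and the libraries of these times overlapped. The fitted amplitude was 0.22 ± 0.04 (SE, n = 59), a ratio of 1.35 between peak and trough, with a peak at ZT14.7 and an adjusted p of 0.00606 in limma. The test over the 6 times without a cosine shape also called it, with a range of 0.45 between times and an adjusted p of 0.0410. That call over times rested on every replicate number but 4, as the adjusted p was 0.264, 0.320, 0.308 and 0.177 without replicates 1, 2, 3 and 5. It was 0.0629 with library totals that leave out 6 noncoding genes and 1 with all library totals. Of its exonic bases 2.99% are shared with a gene on the other strand.

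The fitted peak of Slc2a1 lay between ZT13.1 and ZT16.6 in each sex and in each run. In males the amplitude was 0.25 ± 0.06 with a peak at ZT14.9 (SE, n = 30, limma adjusted p = 0.1004), and in females 0.19 ± 0.07 with a peak at ZT14.4 (SE, n = 29, adjusted p = 0.538). The test of a difference in rhythm between males and females gave an adjusted p of 0.910. Fitted alone, replicates 1 to 5 had peaks at ZT13.1, ZT14.1, ZT16.6, ZT15.5 and ZT14.3. Amplitudes were 0.28 ± 0.07, 0.23 ± 0.10, 0.24 ± 0.09, 0.15 ± 0.11 and 0.25 ± 0.10 (SE, n = 12, or 11 in replicate 5). Their limma adjusted p was 0.693 or more, and these runs are parts of the libraries that gave the call. Without replicate 5 the amplitude was 0.21 ± 0.05 (limma adjusted p = 0.0400), and the call ended without replicate 1 (adjusted p = 0.0792) and without replicate 3 (0.0515). When the library total, most of it noncoding reads, replaced the deposited scale, the amplitude was 0.20 and the adjusted p 1.

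The level of Slc2a1 varied between libraries together with Slc1a3. Over the 59 libraries, deviations of both from their group means correlated with Pearson r = 0.751 and Spearman rho = 0.630 (permutation p = 1e-05 for each, the smallest the resamples can give, two-sided; adjusted over 7 pairs, 1.75e-05 for each). The r was 0.745 in replicates 1 to 4, 0.778 in replicate 5 and 0.671 without the 2 libraries farthest from the median of Slc2a1. Slc1a3 ranked 2 among the 4272 other tested genes by this r. All 7 pairs were chosen with the levels in view, so their p-values do not cover this choice. Libraries were permuted across all runs, so the p-values take no account of shifts between runs. The libraries also share their scaling. The astrocyte list had 4 of its 10 markers in the table, Slc1a3, Gja1, Fgfr3 and Gfap, none of them at 0 in any library. The log2 of their summed level had medians of 14.092, 13.843, 14.005, 13.915, 14.038 and 14.027 from ZT2 to ZT22, with ranges from 12.60 to 14.32 at ZT14 and from 13.66 to 14.23 at ZT2. Of the 4 markers taken singly, Fgfr3 varied most over the day, with an amplitude of 0.24 ± 0.07 (SE), a peak at ZT19.9 and a range of 0.65 between times, and limma adjusted p of 0.0961 for the rhythm and 0.0872 over times. Slc1a3 and Gja1 had amplitudes of 0.12 and 0.11 and Gfap one of 0.07. Their part in the Slc2a1 result was not tested, and none of the 9 endothelial and mural markers listed was analysed here.

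**Figure D3:**
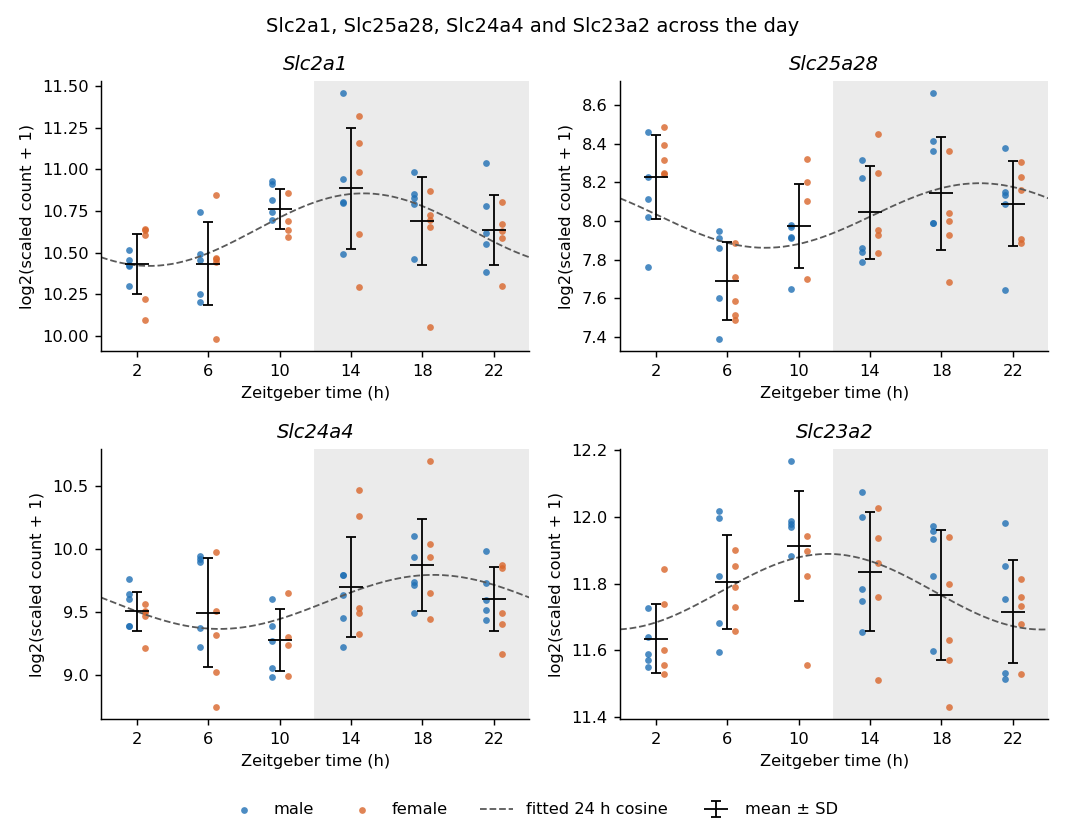
Level of Slc2a1, Slc25a28, Slc24a4 and Slc23a2, as log2(scaled count + 1), in each library by zeitgeber time. Points are libraries, males left of females, bars are the mean ± SD at each time, the dashed line is the fitted 24 h cosine and shading marks the dark phase. Slc2a1 has its highest mean at ZT14, Slc25a28 its lowest at ZT6, Slc24a4 its highest at ZT18 and Slc23a2 its highest at ZT10.

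The other tested carriers of sugars and monocarboxylates were not called, and Slc2a3 and Slc16a1 were not among them. The lactate and pyruvate transporter Slc16a7 (MCT2), found in neurons, had an amplitude of 0.05 ± 0.05, and the proton-coupled inositol transporter Slc2a13 one of 0.07 ± 0.03 (SE, n = 59, limma adjusted p = 0.958 and 0.618). Slc2a8, the intracellular glucose transporter GLUT8, had a fitted peak at ZT14.7, where that of Slc2a1 also lay, with an amplitude of 0.18 ± 0.08 and an adjusted p of 0.630. The largest fitted amplitude of the 68 carriers belonged to Slc16a11, a monocarboxylate transporter family member with a median of 14 reads per library, at 0.49 ± 0.16 with a peak at ZT8.51 and an adjusted p of 0.254. Its values ran from 2.94 to 6.30 at ZT18 and from 4.46 to 6.71 at ZT10, so the libraries of these times overlapped.

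Mitochondrial carriers of the Slc25 family exchange metabolites, nucleotides, phosphate and iron over the inner mitochondrial membrane. In the test over the 6 times 2 of the 68 carriers were called (2.94%), against 45 of 4273 genes (1.05%), and besides Slc2a1 this was Slc25a28. Without adjustment 7 carriers passed (10.3%), against 9.76% of all genes.

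Slc25a28 encodes mitoferrin-2, an iron importer of mitochondria, on GRCm38 chr19:43663801-43674881. Its lowest, median and highest level was 7.76, 8.24 and 8.49 at ZT2, 7.39, 7.66 and 7.95 at ZT6, and 7.65, 7.97 and 8.32 at ZT10. It was 7.79, 7.94 and 8.45 at ZT14, 7.69, 8.02 and 8.66 at ZT18, and 7.65, 8.14 and 8.38 at ZT22. The ZT6 libraries were the lowest as a group and ZT2 the highest, with a partial overlap. Means were 7.69 ± 0.20 at ZT6 and 8.23 ± 0.22 at ZT2 (SD, n = 10 each), and the range over times was 0.54 with an adjusted p of 0.0374 in limma. The 24 h cosine was not called, with an amplitude of 0.17 ± 0.05, a peak at ZT20.1 and an adjusted p of 0.151. Without replicate 5 the range was 0.53 and the adjusted p 0.190. Without replicates 1 to 4 in turn the limma adjusted p was 0.052, 0.326, 0.308 and 0.0978, so the call ended without any 1 run. It held with library totals that leave out 6 noncoding genes (0.039) and with limma voom (0.0298). With all library totals the range was 0.42 and the call ended. The calls of the test over times rested on single libraries, as that of Slc25a28 ended when any 1 of 9 libraries was left out and that of Slc2a1 when any 1 of 23 was.

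The other 10 mitochondrial carriers were not called. The homologous mitoferrin-1, Slc25a37, had an amplitude of 0.07 ± 0.06 (SE, n = 59, limma adjusted p = 0.928). Slc25a29, a carrier of basic amino acids, had a fitted peak at ZT17.9 and an amplitude of 0.25 ± 0.09 (adjusted p = 0.290), and Slc25a42, a coenzyme A carrier, 0.13 ± 0.06 with a peak at ZT17.9 (adjusted p = 0.598). The most abundant members, Slc25a3 and Slc25a33, had amplitudes of 0.04 ± 0.04 and 0.05 ± 0.05.

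None of the carriers of transmitters tested was called, and Slc1a2 was not among them. Slc17a7 had a lowest, median and highest level of 14.36, 14.82 and 15.04 at ZT2, 14.54, 14.91 and 15.19 at ZT6, and 14.60, 14.88 and 15.14 at ZT10. It had 14.66, 14.83 and 15.30 at ZT14, 14.62, 14.85 and 15.09 at ZT18, and 14.69, 14.94 and 15.07 at ZT22. All times overlapped, and the 6 medians lay within the range of any 1 time. The amplitude of Slc17a7 was 0.02 ± 0.04 and that of Slc32a1 0.0044 ± 0.06 (SE, n = 59), with limma adjusted p of 0.996 and 0.999.

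Slc1a1, the neuronal glutamate and cysteine transporter EAAC1, had an amplitude of 0.02 ± 0.04. The astrocytic carriers Slc1a3 and Slc6a11 had larger errors, with amplitudes of 0.12 ± 0.07 and 0.08 ± 0.05 and fitted peaks at ZT22.3 and ZT22.2 (SE, n = 59, limma adjusted p = 0.724 and 0.871). Slc6a8, the creatine transporter, and Slc1a4, a neutral amino acid exchanger, had amplitudes of 0.05 ± 0.03 and 0.02 ± 0.04. In the vesicular class the smallest p was that of Slc17a5 (sialin), which exports sialic acid from lysosomes, with an amplitude of 0.17 ± 0.07, a peak at ZT8.26 and an adjusted p of 0.370.

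**Figure D4:**
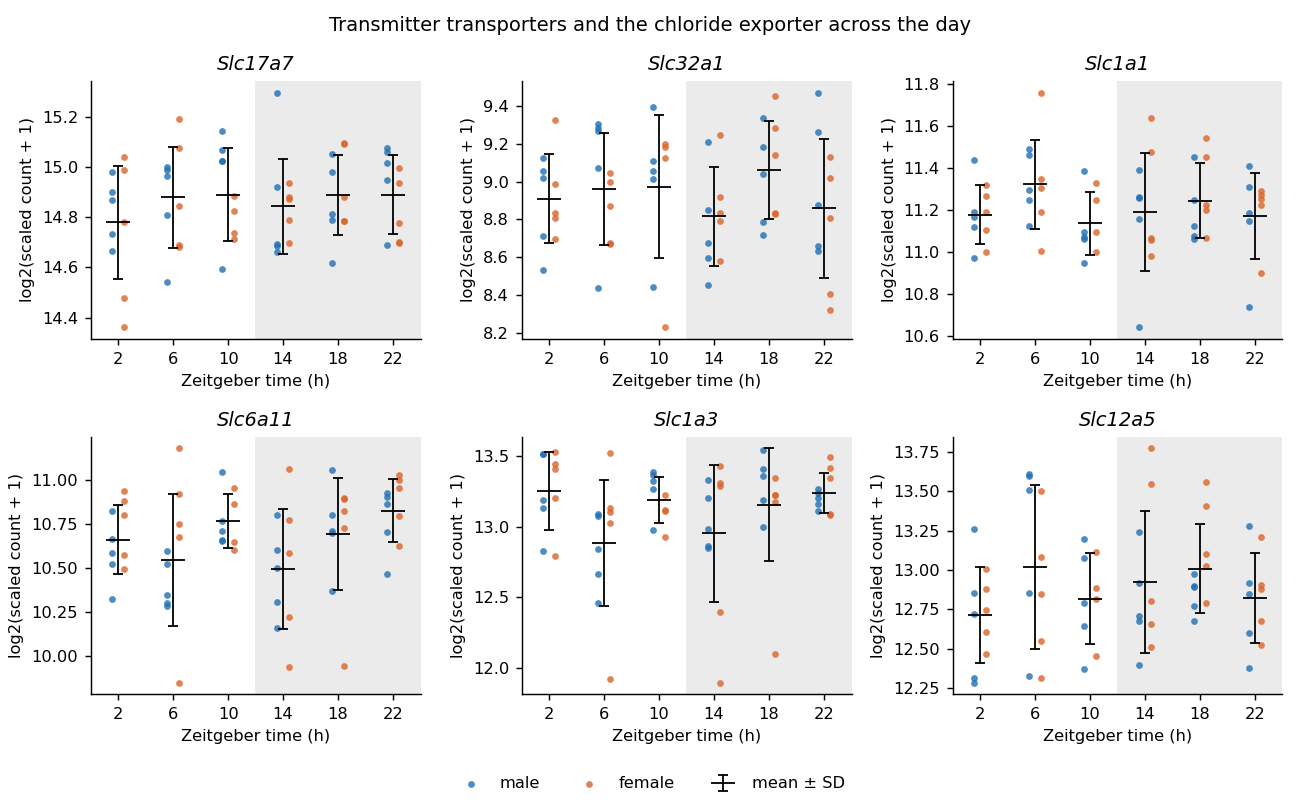
Level of 5 transmitter carriers and of the chloride exporter Slc12a5, as log2(scaled count + 1), in each library by zeitgeber time. Points are libraries, males left of females, bars are the mean ± SD and shading marks the dark phase. Means differ little between times, and single female libraries at ZT6, ZT14 and ZT18 lie lowest in Slc1a3 and Slc6a11.

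Several pairs of these carriers, chosen with the levels in view, varied together between libraries. Their permutation p-values cover neither this choice nor the runs. Slc1a3 and Slc6a11, both astrocytic, correlated with r = 0.844 and rho = 0.706 over the 59 deviations from group means (two-sided permutation test, adjusted p = 1.75e-05 for each), with r = 0.829 in replicates 1 to 4 and 0.918 in replicate 5. Without the 2 libraries farthest from the median of Slc1a3, r was 0.781. The exchanger Slc7a11 followed the astrocytic pair less closely. Its r was 0.373 with Slc1a3 and 0.424 with Slc6a11 and its rho 0.216 and 0.280 (adjusted p of rho 0.0990 and 0.0381 by permutation), and r was 0.278 and 0.308 without the 2 farthest libraries. By r with Slc1a3, Slc6a11 ranked 7 and Slc7a11 459 among the 4272 other tested genes. By r with Slc6a11, Slc7a11 ranked 258.

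Slc1a3 and the neuronal Slc12a5, a pair chosen in the same way and with the same limits on its p-values, moved in opposite directions. They correlated with r = -0.429 and rho = -0.280 (adjusted p = 0.00084 and 0.0381 by permutation), with -0.574 in replicates 1 to 4, -0.625 in replicate 5 and -0.316 without the 2 farthest libraries. Counted from the highest r with Slc1a3, Slc12a5 ranked 3992 among the 4272 other tested genes, so many genes had a lower r. The 3 libraries of lowest Slc1a3, replicate 4 of the females at ZT14, ZT6 and ZT18, held 11.89, 11.92 and 12.10 for Slc1a3. The same 3 libraries were the 3 lowest of all 59 for Slc6a11, at 9.94, 9.85 and 9.94, and stood 5, 7 and 4 from the top for Slc12a5, at 13.54, 13.50 and 13.56. The 6 abundant noncoding genes took 65.60%, 63.91% and 61.998% of their reads, and 61.4% in ZT14 female replicate 5, the next lowest for Slc1a3, and these were the 4 lowest such shares of the 59 libraries. The part of this share in the correlations, that of Slc2a1 with Slc1a3 included, was not tested. These 3 libraries are all of replicate 4, and without replicate 4 the rhythm of Slc2a1 had an amplitude of 0.24 (limma adjusted p = 0.00369).

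Carriers of chloride, bicarbonate, sodium and calcium set the ionic gradients of neurons. Slc24a4, a potassium-dependent sodium-calcium exchanger (NCKX4), came nearest to a call in this class. Its lowest, median and highest level was 9.22, 9.51 and 9.76 at ZT2, 8.75, 9.44 and 9.98 at ZT6, and 8.98, 9.27 and 9.65 at ZT10. It was 9.22, 9.59 and 10.47 at ZT14, 9.44, 9.84 and 10.70 at ZT18, and 9.17, 9.56 and 9.98 at ZT22. The medians of the dark phase times were above those of the light phase times, and all times overlapped. The highest values at ZT6, ZT14 and ZT18 came from ZT6 female replicate 4, ZT14 female replicate 5 and ZT18 female replicate 4. These are among the libraries of lowest Slc1a3 given above, and their joint part in the results of Slc24a4 was not tested. The amplitude of Slc24a4 was 0.21 ± 0.06 with a peak at ZT18.6 (SE, n = 59, limma adjusted p = 0.102).

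Slc12a5 had a mean of 12.71 ± 0.31 at ZT2 and 13.02 ± 0.52 at ZT6 (SD, n = 10 each), and an amplitude of 0.07 ± 0.07. Its deviations followed those of the sodium-calcium exchanger Slc8a2 with r = 0.951 and rho = 0.947 (two-sided permutation test, adjusted p = 1.75e-05 for each), 0.941 in replicates 1 to 4 and 0.857 in replicate 5, and 0.939 without the 2 farthest libraries. Slc8a2 ranked 4 among the 4272 other tested genes by r with Slc12a5. With Slc17a7 the r of Slc12a5 was 0.613 and rho 0.614 over all libraries (adjusted p = 1.75e-05 for each by permutation), and r was 0.579 without the 2 farthest. This r was 0.533 in replicates 1 to 4 but -0.242 in replicate 5, so it did not hold in replicate 5. Slc12a5 and Slc17a7 had means of 13.25 and 15.06 in replicate 5, and of 12.8 and 14.81 in replicates 1 to 4. Both pairs were chosen with the levels in view, and their permutation p-values cover neither this choice nor the runs. By r with Slc17a7, Slc12a5 ranked only 646, so many genes followed Slc17a7 more closely. The sodium-calcium exchanger Slc8a1 had an amplitude of 0.03 ± 0.08, and its mean was 13.42 in replicate 5 and 14.13 in replicates 1 to 4. Slc9a3r2, the scaffold gene, had an amplitude of 0.13 ± 0.06 and a peak at ZT18.5 (adjusted p = 0.595).

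Among carriers of vitamins, lipids and organic ions, the vitamin C transporter Slc23a2 (SVCT2) had the second smallest p for a rhythm. Its lowest, median and highest level was 11.53, 11.59 and 11.84 at ZT2, 11.59, 11.81 and 12.02 at ZT6, and 11.55, 11.94 and 12.17 at ZT10. It was 11.51, 11.82 and 12.07 at ZT14, 11.43, 11.81 and 11.97 at ZT18, and 11.52, 11.74 and 11.98 at ZT22. Medians were lowest at ZT2 and highest at ZT10, with overlap. The amplitude was 0.11 ± 0.03, a ratio of 1.17 between peak and trough, with a peak at ZT11.6 and an adjusted p of 0.0804 in limma. With the replicate number as a block, which the labels do not call a batch, the limma adjusted p was 0.0427. With the first principal component as a covariate it was 0.031. Without replicates 1 to 5 in turn, and with no block, it was 0.239, 0.303, 0.234, 0.132 and 0.214. Library totals that leave out 6 noncoding genes gave 0.135, and all library totals gave an amplitude of 0.08 and no call. Fitted alone, replicates 1 to 5 had peaks from ZT9.05 to ZT13.7, with limma adjusted p of 0.795 or more.

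The proton-coupled folate transporter Slc46a1 peaked at ZT4.05 in the fit, with an amplitude of 0.24 ± 0.07 (SE, n = 59, limma adjusted p = 0.104), and means between 6.82 ± 0.41 at ZT18 and 7.29 ± 0.26 at ZT2 (SD, n = 10 each). Slc22a8, an organic anion transporter known from the blood-brain barrier and choroid plexus, had an amplitude of 0.20 ± 0.11 (adjusted p = 0.699). The abundant Slc22a17 and Slc48a1 had amplitudes of 0.04 ± 0.05 and 0.06 ± 0.03. Slc48a1 had the narrowest spread of the 68 carriers, with a residual SD of 0.14, against a median of 0.34 for carriers and 0.35 for all genes.

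In the remaining classes no carrier was called. Of the 5 tested carriers of amino acids and peptides none passed even without adjustment, among them the cystine-glutamate exchanger Slc7a11 (0.10 ± 0.06, peak ZT1.37, limma adjusted p = 0.740), the exchanger Slc7a8 (0.07 ± 0.05) and the lysosomal histidine and peptide transporter Slc15a4 (0.11 ± 0.06). Of the 7 carriers of metal ions none passed without adjustment either, and the abundant zinc importer Slc39a10 had an amplitude of 0.07 ± 0.04. Of the 10 carriers of nucleotide sugars and nucleosides, 1 passed without adjustment, Slc35b2, which imports the sulfate donor PAPS into the Golgi (0.19 ± 0.07, peak ZT9.57, adjusted p = 0.370). Slc35b2 was among the 4 carriers more than 0.5 lower in replicate 5 than in the others (8.71, against 9.31).

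Between the dark and the light phase no carrier was called, against 32 of 4273 genes (0.749%). Without adjustment 10 carriers passed (14.7%, against 8.42% of all genes), 5 of them higher (against 4.66%) and 5 lower (against 3.77%) in the dark phase, and limma voom on the recovered reads also called 0. Slc24a4 had the smallest p. Its level, as lowest, median and highest, was 9.17, 9.69 and 10.70 in the dark phase (n = 30) and 8.75, 9.39 and 9.98 in the light phase (n = 29), with broad overlap. The difference was 0.30 (95% interval 0.13 to 0.47), or 1.23-fold, with a limma adjusted p of 0.0649. Without replicate 5 the difference was 0.24 and the adjusted p 0.387, and with library totals that leave out 6 noncoding genes the adjusted p was 0.0429. With the replicate number as a block, which the labels do not call a batch, the difference was 0.30 and the limma adjusted p 0.0343.

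The other carriers with unadjusted p under 0.05 and a higher level in the dark phase were Slc25a29, with a difference of 0.35 (0.10 to 0.60), Slc2a1, with 0.20 (0.07 to 0.32), Slc25a42, with 0.18 (0.01 to 0.35), and Slc35e1, with 0.12 (0.03 to 0.22). Those with a lower level were Slc16a11, with -0.49 (-0.96 to -0.03), Slc22a8, with -0.37 (-0.67 to -0.08), Slc46a1, with -0.27 (-0.47 to -0.07), Slc17a5, with -0.24 (-0.42 to -0.05), and the Golgi zinc transporter Slc30a6, with -0.22 (-0.41 to -0.03). None of these 9 passed the adjusted threshold, and their limma adjusted p ran from 0.176 to 0.531. Slc2a1 was highest at ZT14 and already above its ZT2 and ZT6 medians at ZT10, a time of the light phase.

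**Figure D5:**
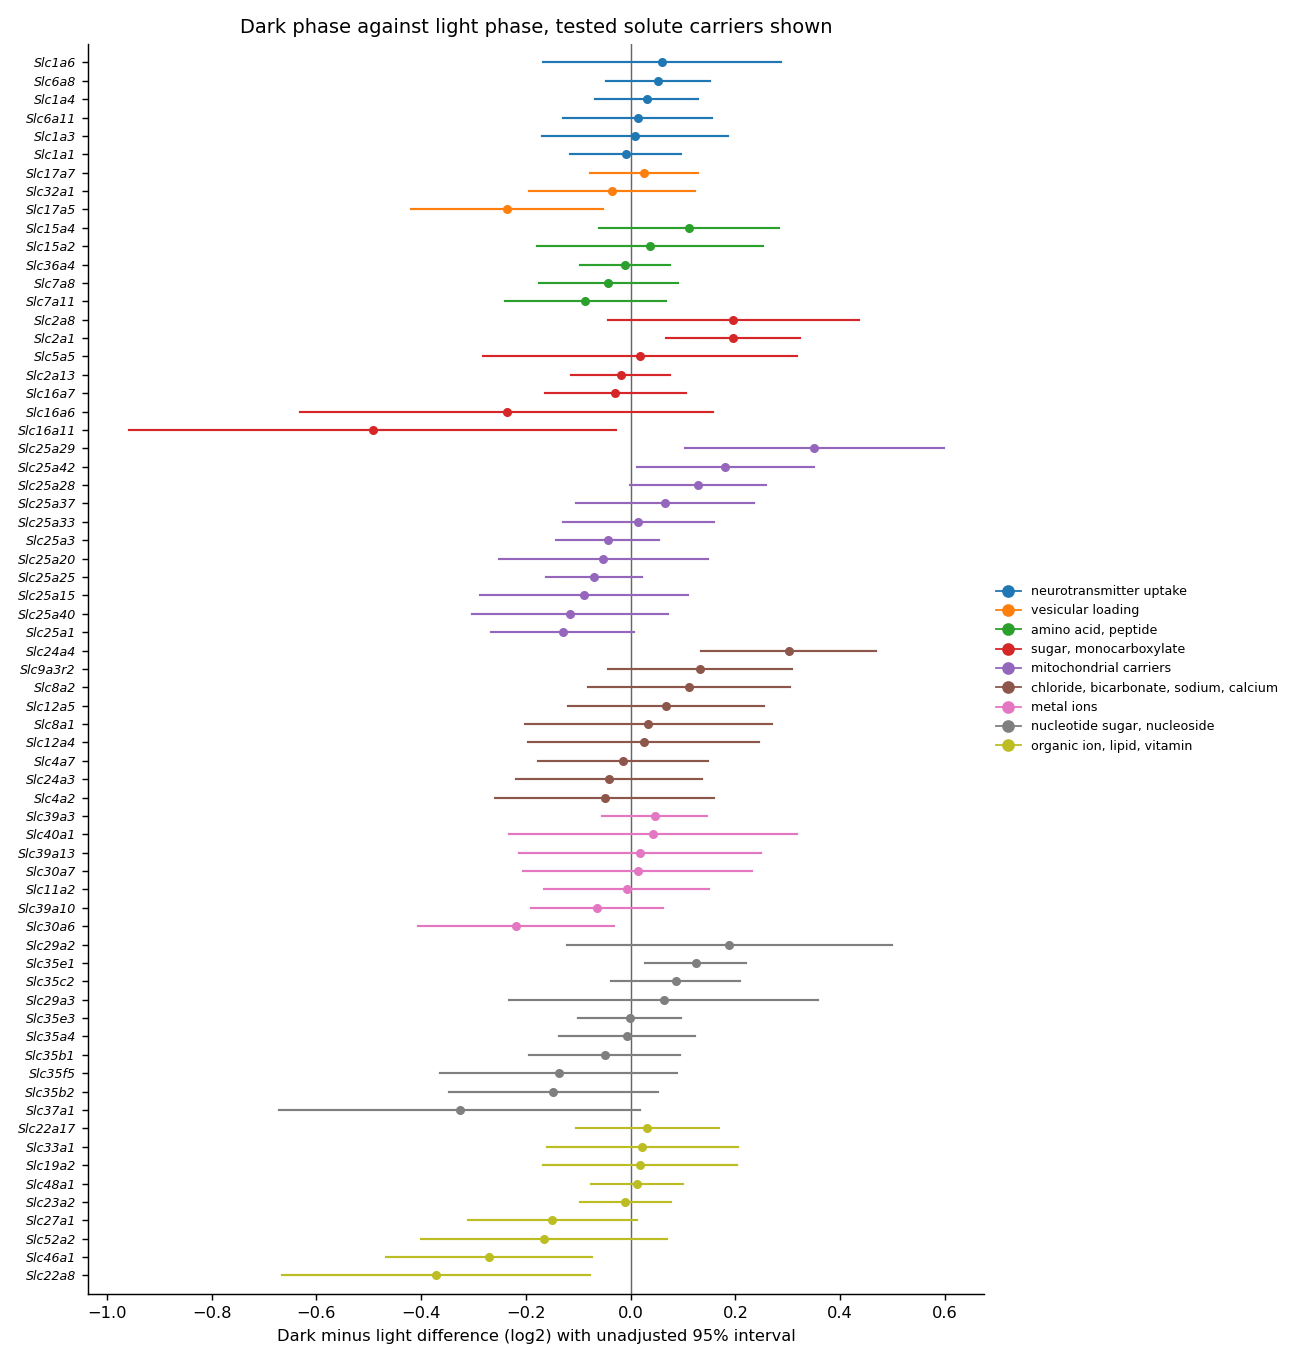
Difference between dark and light phase, in log2 units, for the tested carriers shown by class, with unadjusted 95% intervals. Values right of 0 are higher in the dark phase. The interval lies above 0 for 5 carriers and below 0 for 5, and no carrier passed the adjusted threshold.

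The intervals, not adjusted for the number of carriers, give the mean differences between phases that fitted these libraries. They do not give the smallest difference that could be called. For 35 of the 68 carriers the 95% interval of the dark minus light difference lay within 0.25 of 0, for 63 within 0.5 and for all 68 within 1, so a 2-fold difference lay outside every interval. The interval ran from -0.08 to 0.13 for Slc17a7, from -0.20 to 0.12 for Slc32a1, from -0.17 to 0.19 for Slc1a3 and from -0.12 to 0.25 for Slc12a5.

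Between males and females no carrier was called, against 1 of 4273 genes (0.0234%), and limma voom also called 0. Without adjustment 1 carrier passed (1.47%, against 2.43% of all genes), the mitoferrin Slc25a37. It averaged 8.15 ± 0.31 in males (SD, n = 30) and 7.96 ± 0.32 in females (n = 29), a difference of 0.19 (0.02 to 0.36) with a limma adjusted p of 0.999. Differences were above 0 in 42 carriers, or 61.8%, against 50.2% of all genes, and below 0 in 26, and the 95% interval lay within 0.25 of 0 for 40 and within 0.5 for 65. Slc46a1 averaged 7.003 ± 0.41 in males and 7.196 ± 0.38 in females, a difference of -0.19 (-0.39 to 0.0018) that did not pass without adjustment either.

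A rhythm in males alone was called for 0 carriers, against 7 of 4273 genes (0.164%), and in females alone for 0, against 14 (0.328%), and limma voom called 0 in each. Without adjustment 10 carriers passed in males (against 7.54% of all genes) and 12 in females (against 8.89%). The difference in rhythm between males and females, tested as such, was called for 0 carriers and 0 genes (0.00%), also by limma voom, with 5 carriers passing without adjustment (7.35%, against 4.21% of all genes). Of these 5, 4 were among the 7 tested carriers of metal ions, and the fifth is the mitochondrial carrier Slc25a40. Whether carriers of metal ions stand apart was not tested. Slc30a6 had an amplitude of 0.04 ± 0.09 in males and 0.32 ± 0.09 in females with a peak at ZT4.71. The iron exporter Slc40a1 (ferroportin) had a fitted peak at ZT18.5 in males and ZT4.31 in females, with amplitudes of 0.31 ± 0.15 and 0.24 ± 0.11. The zinc transporter Slc39a13 had 0.18 ± 0.11 in males and 0.27 ± 0.11 in females, and Slc39a10 0.17 ± 0.06 and 0.07 ± 0.06 (SE, n = 30 and 29). The limma adjusted p of the difference was 0.741 for each of these 5.

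Replicate 5 differed from the other runs in some carriers and little in most. The mean of replicate 5 was more than 0.5 above that of replicates 1 to 4, by deviations from the means of the 12 groups, in 3 carriers, given here with plain means of the runs, the nucleoside transporter Slc29a3 (7.24, against 6.61), Slc22a8 (7.07, against 6.60) and the iodide transporter Slc5a5 (7.74, against 7.19). It was more than 0.5 below in 4, which were Slc8a1, Slc40a1 (7.86, against 8.52), the acetyl coenzyme A transporter Slc33a1 (9.42, against 9.999) and Slc35b2. Over all genes 433 and 399 of 4273 passed these limits. Slc2a1, Slc24a4 and Slc23a2 were not among the 7.

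Partners of the carriers were read from lists of genes of the same pathways, of which 31 genes were tested. None was called in any of the 7 comparisons in limma, and 3 passed for a rhythm without adjustment, Abca9, Eif4ebp1 and Emb. Of the enzymes of glutamate, glutamine and GABA 4 of 12 were in the table, and both GABA-synthesising enzymes, Gad1 and Gad2, had amplitudes of 0.02 ± 0.04 and 0.08 ± 0.06 (SE, n = 59, limma adjusted p = 0.996 and 0.906). Of the sodium pump, whose gradient drives uptake, 2 of 10 subunits were tested. The 4 of 16 subunits of the vesicular proton pump had adjusted p of 0.794 or more for a rhythm. Of 11 partners of glucose and lactate transport 3 were in the table, and hexokinase 1, the enzyme that traps glucose after entry, had an amplitude of 0.03 ± 0.08. The ABC transporters, which pump with ATP instead, had 12 of 33 members in the table, of which Abca9 came nearest to a call (0.25 ± 0.07, peak ZT20.8, adjusted p = 0.0882). Of 11 genes of the amino acid response 6 were tested, and none of the 6 listed kinases of chloride cotransporters and none of the 7 Slco transporters was analysed here.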

How the data were processed

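RNA sequencing libraries were made from total RNA with the SMART Stranded Total RNA kit, per the labels, and the submitters' processing notes name FastQC, HTSeq, DESeq2 and the build GRCm38, without versions. The aligner, annotation release and strand setting are not given in the sources used here. The authors deposited log2 of scaled counts plus 1, under a name that says raw counts. Dividing 2 to the power of the value, minus 1, by 1 step per library gave whole reads in all 59 libraries, within 0.05 of a whole number. Recovered reads served for depth, for the filter (at least 10 reads in at least 4 libraries, 4273 genes) and for limma voom. The planned tests were kept, on the deposited log2 values, in limma 3.58.1 (R 4.3.3) with an intensity trend and robust fit, Benjamini-Hochberg adjustment over the genes tested and a threshold of 0.05. Checks on simulated data, drawn without a run effect, preceded the planned tests and did not cover the alternatives or the correlations.

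Symbols, positions and exon lengths came from GENCODE M21, and 4465 of 4484 genes had a symbol. Scaled reads were divided by exonic kilobases for levels between genes. Groups came from the titles, and replicates were numbered by run of 12 serial numbers. The carriers, their classes, the pathway lists and the marker lists were chosen with earlier results of these data known. Genes named were those called, the 3 of smallest rhythm p in each class, the 10 of highest level and a list of transmitter and metabolic carriers, while others named for an unadjusted p, for replicate 5 or as an example were added after their values were seen. Alternatives were another pseudocount, no filter, 2 library totals, limma voom, a replicate block, a principal component covariate, each library or run left out and, added after seeing the data, each run alone. Of the listed markers 4 of 10 for glutamatergic neurons and 6 of 10 for GABAergic neurons were in the table, and 1 of 8 for oligodendrocytes, 1 of 4 for their precursors, 2 of 8 for microglia and 1 of 6 for meninges. None was in the table of the 9 for endothelium and mural cells, 6 for choroid plexus, 6 for striatum and 4 for olfactory bulb. Results of some genes are not reported here. Correlations used 100000 resamples over all libraries, without regard to runs.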

Additional observations from a re-analysis of the deposited data

Results flagged for a closer look

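In 4 of 84 groups of libraries at 1 time, a library of a named carrier stood far from the others, and chance flags about 1 in 20 such groups. For Slc17a7 at ZT14, male replicate 5 had the highest value, 15.296, and the nearest library 14.936. For Slc1a3 at ZT18, female replicate 4 had the lowest value, 12.099, and the nearest library 12.9948. For Slc24a4 at ZT18, the same female replicate 4 had the highest value, 10.6978, and the nearest library 10.1078. For Slc46a1 at ZT18, male replicate 4 had the lowest value, 5.9252, and the nearest library 6.5779.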

How the results depend on the processing

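The count of carriers with a rhythm was 1 in the fit reported. It was 0 with library totals, 2 with the replicate block (Slc2a1 and Slc23a2, adjusted p = 0.0427) and 4 with the first principal component as a covariate, and 0 to 2 when a library or run was left out. The count over the 6 times was 2. It was 0 with library totals, 1 with totals that leave out 6 noncoding genes and 9 with the principal component, and 0 to 2 when a library or run was left out. The dark against light count of 0 became 1 with totals that leave out 6 noncoding genes (Slc24a4, adjusted p = 0.0429), 1 with the replicate block (Slc24a4, 0.0343) and 2 with the principal component, and was 0 to 1 with a library or run left out. With the principal component 7 carriers passed for a difference in rhythm between the sexes, 4 in males and 3 in females, and in males 0 to 1 passed with a library or run left out. Over all genes the principal component moved the rhythm count to 242, against 81, and the count over times to 620, against 45. This component was taken from deviations from group means, so it lowers the residual spread and leaves effect sizes as they were. Library totals, which the 6 noncoding genes dominate, left 3 rhythmic genes of all. The cause of the other changes was not tested.

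Slc25a28 lost its call over times without ZT2 male replicate 2, ZT2 female replicates 1 and 2, ZT6 male replicates 2 and 5 or ZT6 female replicates 1, 3, 4 and 5, each alone, with adjusted p up to 0.0922. Slc2a1 lost its own without any of ZT2 male replicates 1 to 5, ZT2 female replicates 2 and 4, ZT6 male replicates 2, 3 and 5, ZT6 female replicates 3 and 4, ZT10 male replicates 4 and 5, ZT10 female replicates 1 and 4, ZT14 male replicates 1, 4 and 5, ZT14 female replicates 1 to 3 or ZT18 male replicate 3, with adjusted p up to 0.0794. Slc24a4 gained a dark against light call without ZT6 male replicates 2, 3 and 5, ZT6 female replicate 4, ZT14 male replicate 1, ZT14 female replicate 3, ZT18 female replicate 1 or ZT22 female replicate 3, each alone, and a rhythm call (adjusted p = 0.0484) without ZT6 female replicate 4. Slc23a2 gained a rhythm call without ZT10 female replicate 1, ZT14 male replicate 2, ZT14 female replicate 4 or ZT22 male replicate 3, and Slc2a1 one in males without ZT14 male replicate 2. The rhythm of Slc2a1 kept its call without any single library, with adjusted p up to 0.0139. Of the values of single carriers under these alternatives 5044 kept their side of the threshold, 47 lost a call, 21 gained one and 0 called values changed direction. Small differences that were not called did change sign, as that of Slc23a2 between dark and light phase, which was -0.01 as reported and 0.02 without replicate 4.

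Replicate numbers were not taken to pair the libraries, since the labels give them no shared litter, batch or day. Also, not every pair of the same number correlated above 0.1. That rule is strict and cannot exclude a run effect, since a real block can hold pairs below it. Each number held a library of every group, except replicate 5, which had none of ZT10 females. Libraries of the same number in different groups correlated by 0.107 on average (from -0.494 to 0.601), against -0.0264 for other numbers. Within replicate 5 the mean was 0.408 (from 0.183 to 0.586), and within replicates 1 to 4 it was 0.0465, 0.0207, 0.0419 and 0.0679. Of the 59 libraries 26 correlated best with their own number, which is a hint from the data and not from the design. The replicate block changed no other count of carriers. Among carriers of few reads, Slc16a11, with a median of 14, had a residual SD of 0.89, and Slc16a6, with a median of 11, one of 0.77. The part of depth in this spread was not tested.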
